A study of Mus musculus with 137 samples.

Results

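Control macrophages of 3 mouse cohorts were compared after 6 h with lipopolysaccharide (LPS) and interferon-gamma (IFN-gamma) and at rest (0 h). They were chosen by genotype and time as the labels give them, and make up 46 of the 137 samples of a study of Beclin1, a protein of autophagy and endosomal traffic: 9 samples at 6 h and 9 at 0 h in cohort KO1, 8 and 8 in cohort KO2, and 6 and 6 in cohort KI. RNA was counted by Smart-Seq2, which primes on poly(A) tails and keeps neither strand nor molecular barcodes. Controls of KO1 and KO2 were labelled WT with the genotype Beclin1flox/flox-LysM-Cre-, so at both times they carried floxed alleles of Beclin1 and no Cre. Their knockout partners express Cre from the lysozyme M gene of myeloid cells. Controls of KI were WT littermates of Beclin1F121A/F121A mice. Marrow of mice aged 7 weeks was grown for 7 days in DMEM with M-CSF at 20 ng/ml, which yields bone marrow-derived macrophages, and the cells were re-plated before they received LPS and IFN-gamma, each at 100 ng/ml. The strain is not given in the sources used here. KO1 libraries carry 3 culture numbers, 33, 34 and 35, with 3 libraries each at each time, which were summed, so n is 3, 8 and 6 per group in KO1, KO2 and KI. Nothing in the labels says whether samples of a group came from separate mice or cultures, so p-values measure the spread between these samples, which may be technical. Cohort and experiment cannot be told apart.

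LPS is a wall component of Gram-negative bacteria that the receptor TLR4 recognises with CD14 and MD-2. Through the adaptor MyD88 it releases NF-kB from its inhibitors, and through the adaptor TRIF it drives interferon-beta, which acts back on the cell. IFN-gamma, made by T and NK cells, binds a receptor of its own, activates the kinases JAK1 and JAK2, and with LPS sets macrophages to make inflammatory cytokines, nitric oxide and antigen-presenting molecules. The comparison asks what these stimuli changed by 6 h in control cells, and which changes were shared by all 3 cohorts.

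KO1 libraries held 2105058 to 3128741 counts in genes at 6 h, against 2207035 to 4072313 at 0 h. The ranges were 3400367 to 7214688, against 3089164 to 5959266, in KO2, and 4613210 to 10422416, against 3574158 to 10233584, in KI. All 10 macrophage markers were detected over 1 CPM (counts set to a common library total) in every group. Their summed level was 31178 to 55562 CPM at 6 h, against 57687 to 139880 CPM at 0 h, over the 3 cohorts. In plain CPM most genes were lower at 6 h, as given below. Relative to the bulk of genes, these 10 markers had a median log2 fold change of 0.22 (6 h over 0 h), with 3 higher and 3 lower in all 3 cohorts. Markers of other cells stayed low in sum, at most 63.8 CPM for fibroblast and endothelial, 53.6 CPM for T and NK, 27.8 CPM for dendritic and 8.10 CPM for B cells at 6 h, against 40.8, 9.51, 21.2 and 39.7 CPM at 0 h. Monocyte markers summed to 77.2 to 143 CPM at 6 h, against 7.19 to 14.9 CPM at 0 h, in KO2, but to 141 to 183 CPM, against 210 to 225 CPM, in KI and to 231 to 336 CPM, against 192 to 303 CPM, in KO1. Neutrophil markers summed to at most 196 CPM at 6 h and 284 CPM at 0 h. The part of other cells in the results was not tested. In bulk RNA, fewer cells of a type and less RNA per cell cannot be told apart.

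A large part of the genes changed in the same direction in every cohort, and the steepest risers came to hold a large share of the counts. A gene was called at an adjusted p under 0.05 in edgeR's quasi-likelihood test over all genes tested. Of 13693 genes tested in KO1, 3515 (25.7%) were higher and 4252 (31.1%) lower at 6 h. In KO2 the counts were 3505 (32.5%) and 4136 (38.3%) of 10794 genes, and in KI 4217 (36.7%) and 4233 (36.8%) of 11500 genes. Among the 10612 genes tested in all 3 cohorts, 2317 (21.8%) rose and 2870 (27%) fell in all 3. By a test against a 2-fold change, 1175 (11.1%) rose and 957 (9.02%) fell in all 3. Another 62 genes were called in every cohort but in mixed directions, and 1148 were called in none. Of the calls among these 10612 genes, shared risers made up 82.5% of the higher calls of KO1, 66.9% of those of KO2 and 59.1% of those of KI, and shared fallers 72.4%, 70.7% and 71.2% of the lower calls. The middle of the cohorts' log2 fold changes (6 h over 0 h) was over 5 in size for 263 risers and below -5 for 23 fallers, with medians of 1.83 over risers and -1.47 over fallers. Across genes, which are not independent replicates, the log2 fold changes correlated at r = 0.911 between KO1 and KO2, 0.918 between KO1 and KI and 0.938 between KO2 and KI.

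The 1175 risers past 2-fold took 45% to 50.4% of KO1 counts at 6 h, against 5.58% to 8.19% at 0 h. Their share was 38.5% to 40.1%, against 4.37% to 4.99%, in KO2, and 49.8% to 51.8%, against 5.59% to 6.03%, in KI. The 957 fallers took 0.812% to 1.16% of KO1 counts at 6 h, against 8.65% to 9.82% at 0 h, with 1.05% to 1.34% against 8.52% to 10.9% in KO2 and 0.897% to 1.10% against 11% to 11.7% in KI. These genes were chosen for their change, so the shares are a description. The scaling sets where no change lies. TMM factors, which hold the bulk of genes level, were 0.647 to 0.907 at 6 h and 1.18 to 1.73 at 0 h, and left the median log2 fold change over all genes at -0.09 in KO1, -0.11 in KO2 and 0.00 in KI. Scaling by total counts alone put it at -1.11, -0.93 and -1.19. On that scale 1050 genes were shared risers and 6281 shared fallers, and the higher share of calls was 15% in KO1, 19.9% in KO2 and 17.7% in KI, against 45.3%, 45.9% and 49.9% with TMM. All 2870 shared fallers and 1050 of the 2317 shared risers were called alike on both scales. Changes below are relative to the bulk of genes, and a named riser that does not hold on total counts is marked as such.

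**Figure D1:**
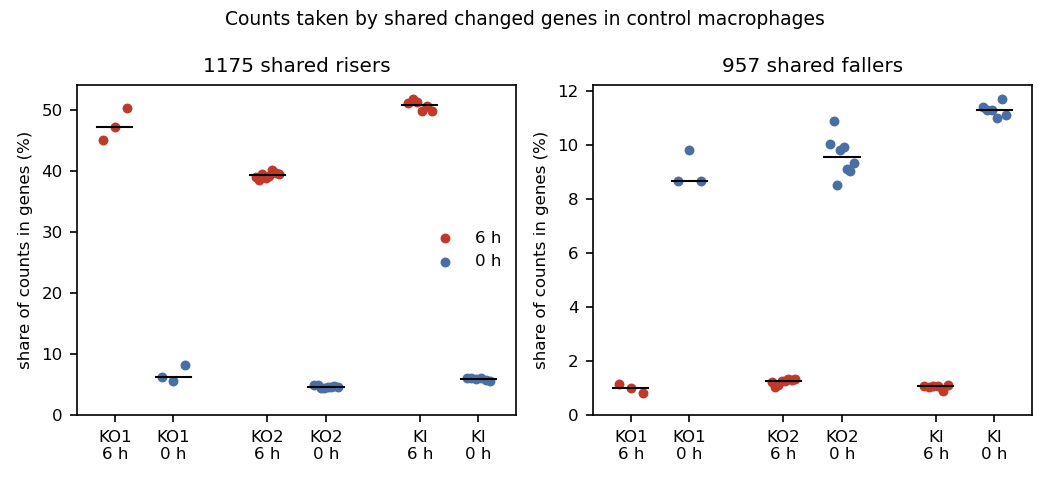
Share of counts in genes (%) taken by the 1175 shared risers (left) and the 957 shared fallers (right) past 2-fold, by cohort and time. Each point is a culture (KO1) or library (KO2, KI), bars are medians, and the risers sit at 38.5% to 51.8% at 6 h, against 4.37% to 8.19% at 0 h.

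In the gene lists, members that rose in all 3 cohorts were set beside the 21.8% of all genes that did, and members that fell beside 27%. Every one of the 19 interferon-inducible GTPases tested in all 3 cohorts rose, 9 of 10 CC chemokines, 17 of 18 nucleic acid sensors and 39 of 45 interferon-stimulated genes. At the other end, 16 of 23 genes of DNA replication, 14 of 23 genes of the tricarboxylic acid (TCA) cycle and itaconate, and 18 of 39 autophagy genes fell. A list's median is taken over its members tested in all 3 cohorts, and over all 10612 genes the median log2 fold change was -0.12. On total counts 1050 of the 10612 genes rose and 6281 fell in all 3 cohorts, with a median of -1.14. Counts of list members on total counts are to be read beside these, since most genes fell on that scale.

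**Figure D2:**
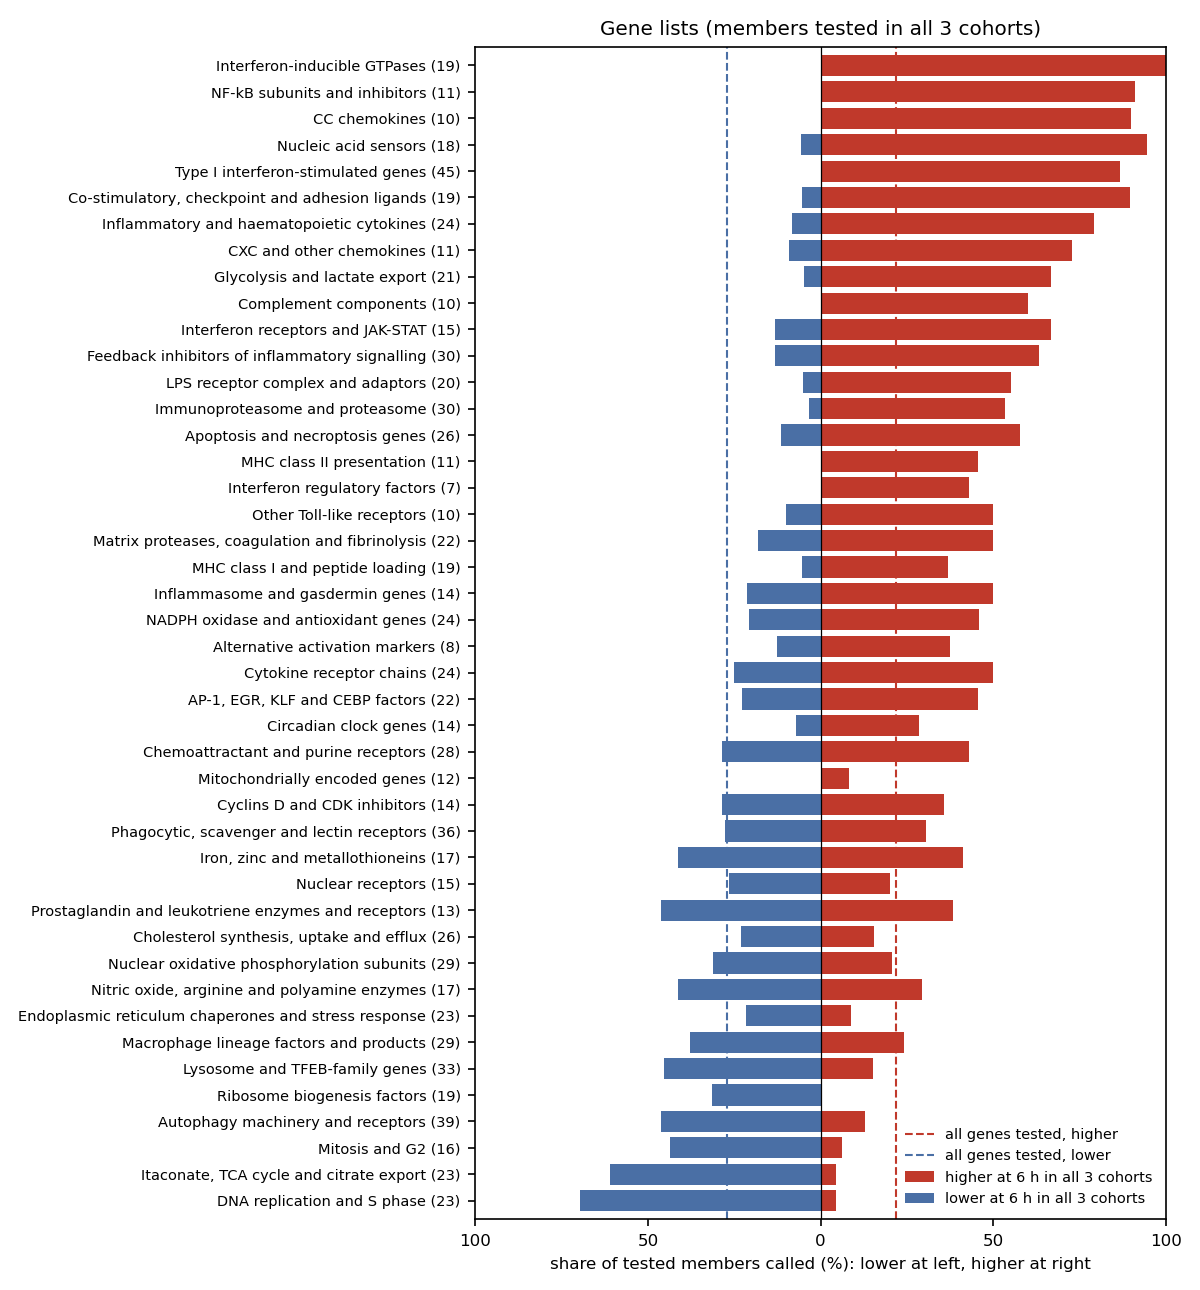
Share of members (%) higher at 6 h (right) and lower at 6 h (left) in all 3 cohorts for each gene list, with the number of members tested in brackets. Dashed lines mark all genes tested, at 21.8% higher and 27% lower, and lists are ordered by the difference of both shares.

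Promoters are shown for genes whose changes the results turn on, because members of these lists moved together. They are RefSeq's, build GRCm38.p6 (mm10), run from 250 bases before the annotated start to 50 bases after it, and are printed 5′ to 3′ on the gene's strand. Capitals mark matches on either strand to the NF-kB motif GGGANNNNCC, to the interferon-stimulated response element (ISRE), read as GAAA, 2 free bases and GAAA, which IRF complexes bind, and to the gamma-activated site (GAS) TTCNNNGAA, an element of genes that IFN-gamma induces. Cxcl10 (chr5:92348840-92349139, minus strand), Irf1 (chr11:53769764-53770063, plus strand), Gbp2 (chr3:142620413-142620712, plus strand), Gbp5 (chr3:142496684-142496983, plus strand), Il6 (chr5:30012864-30013163, plus strand) and Nfkbia (chr12:55492598-55492897, minus strand) rose, and Cx3cr1 (chr9:120068247-120068546, minus strand) fell.
Cxcl10: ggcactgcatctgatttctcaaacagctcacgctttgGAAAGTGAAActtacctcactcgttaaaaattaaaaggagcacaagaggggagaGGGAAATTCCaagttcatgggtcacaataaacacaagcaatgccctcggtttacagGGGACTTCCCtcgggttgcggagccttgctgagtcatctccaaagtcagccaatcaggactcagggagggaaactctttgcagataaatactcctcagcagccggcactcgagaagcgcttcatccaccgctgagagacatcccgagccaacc
Irf1: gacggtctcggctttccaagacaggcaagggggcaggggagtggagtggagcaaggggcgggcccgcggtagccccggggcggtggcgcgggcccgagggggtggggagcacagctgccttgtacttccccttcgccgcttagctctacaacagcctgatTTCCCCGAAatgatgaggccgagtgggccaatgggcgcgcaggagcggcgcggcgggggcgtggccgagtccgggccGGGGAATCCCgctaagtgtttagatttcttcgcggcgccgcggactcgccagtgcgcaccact
Gbp2: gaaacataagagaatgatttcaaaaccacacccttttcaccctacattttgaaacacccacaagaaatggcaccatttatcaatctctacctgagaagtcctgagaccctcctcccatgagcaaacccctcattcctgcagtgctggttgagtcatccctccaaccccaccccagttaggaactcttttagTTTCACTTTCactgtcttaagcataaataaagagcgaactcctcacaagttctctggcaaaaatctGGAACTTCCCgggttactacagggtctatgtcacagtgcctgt
Gbp5: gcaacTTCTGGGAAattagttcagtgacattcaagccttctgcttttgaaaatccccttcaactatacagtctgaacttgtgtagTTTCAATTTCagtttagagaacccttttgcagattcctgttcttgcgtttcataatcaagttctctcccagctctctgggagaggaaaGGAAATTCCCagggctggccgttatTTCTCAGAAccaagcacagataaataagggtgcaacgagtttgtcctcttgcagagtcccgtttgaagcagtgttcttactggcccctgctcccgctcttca
Il6: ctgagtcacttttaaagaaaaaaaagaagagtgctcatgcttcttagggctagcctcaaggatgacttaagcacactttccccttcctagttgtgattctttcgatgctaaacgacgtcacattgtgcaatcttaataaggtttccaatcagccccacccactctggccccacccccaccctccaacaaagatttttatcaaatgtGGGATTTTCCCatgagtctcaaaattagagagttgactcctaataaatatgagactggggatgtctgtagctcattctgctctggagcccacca
Nfkbia: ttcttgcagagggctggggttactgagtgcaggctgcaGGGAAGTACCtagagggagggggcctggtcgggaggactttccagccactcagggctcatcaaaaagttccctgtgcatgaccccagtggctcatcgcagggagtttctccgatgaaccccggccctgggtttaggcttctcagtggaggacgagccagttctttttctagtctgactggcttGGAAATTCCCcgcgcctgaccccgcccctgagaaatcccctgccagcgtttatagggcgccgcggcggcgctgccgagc
Cx3cr1: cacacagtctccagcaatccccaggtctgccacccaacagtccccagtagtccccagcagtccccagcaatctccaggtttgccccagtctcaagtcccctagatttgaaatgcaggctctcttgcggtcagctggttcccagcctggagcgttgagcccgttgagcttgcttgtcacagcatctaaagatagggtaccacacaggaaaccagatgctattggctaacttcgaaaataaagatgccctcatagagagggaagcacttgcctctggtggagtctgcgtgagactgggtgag

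The Cxcl10 promoter held an ISRE match that begins 213 bases before the start and NF-kB matches at 159 and 103 bases. The Irf1 window printed held a GAS match at 90 bases and an NF-kB match at 13 bases before the start, while RefSeq's other Irf1 start (chr11:53770223-53770522) held none of these letters. Gbp2 had an ISRE match at 59 bases before the start and an NF-kB match 7 bases after it, and Gbp5 an ISRE match at 165, an NF-kB match at 77 and GAS matches at 245 and 52 bases before it. In Il6 overlapping NF-kB matches began 44 and 43 bases before the start, and in Nfkbia they began at 212 and 29 bases. The Cx3cr1 window held none of these letters. Promoters were found for 874 of the 1175 risers past 2-fold, 774 of the 957 fallers and 8228 of all 10612 genes, some genes with several. The ISRE letters stood in 8.59% of 1152 riser promoters, in 1.83% of 1036 faller promoters and in 3.42% of all 10495. With only the 250 bases before the start, these shares were 7.12%, 1.83% and 2.97%. The NF-kB letters, which allow 4 free bases, stood in 27%, 26.1% and 26%, and the GAS letters in 7.73%, 6.08% and 7.04%. TATAAA was found in 10.3%, 6.27% and 6.90%, the AP-1 motif TGANTCA in 6.94%, 5.79% and 5.29%, and the E-box CACGTG in 8.25%, 12.1% and 10.4%. The CRE core TGACG stood in 25.7%, 26.8% and 31.9%, the GC box GGGCGG in 57.9%, 61.5% and 62.9%, and the PU.1-like GGAAGT in 27.8%, 25.1% and 30.1%. A match is letters in this window, not a bound site.

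**Figure D3:**
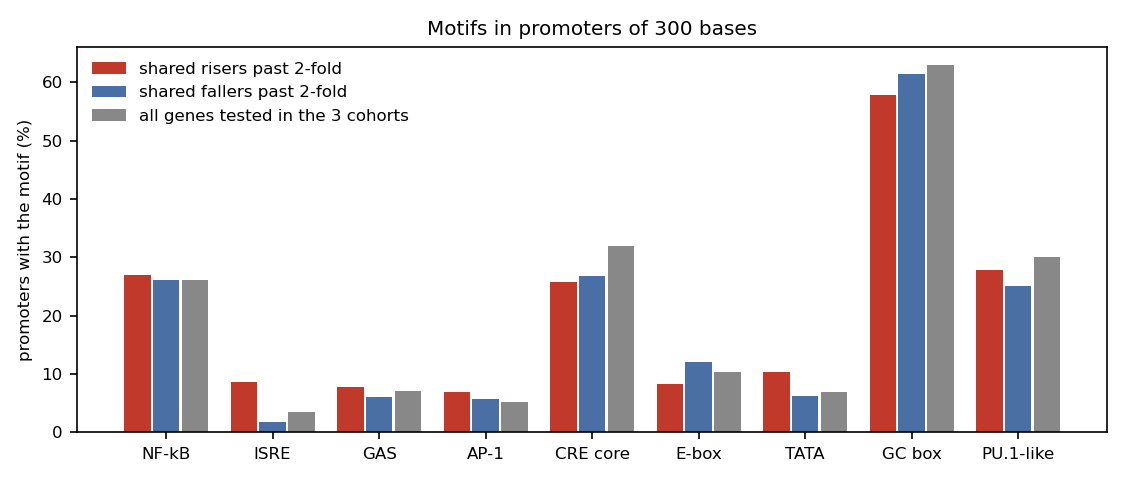
Share of promoters of 300 bases (%) that hold each motif on either strand, for 1152 promoters of shared risers past 2-fold, 1036 of shared fallers and 10495 of all genes tested. ISRE letters stand in 8.59% of riser, 1.83% of faller and 3.42% of all promoters.

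Among the receptors for both stimuli, Cd14 rose and Ifngr1 fell in all 3 cohorts, and Tlr4 fell in KO1 and KI. Of 20 members of the LPS receptor complex and its adaptors, 11 rose and 1 fell (median 0.89), with 7 higher and 5 lower on total counts. Levels of single genes are given as scaled CPM, which is CPM of a library's TMM-adjusted total, each cohort scaled on its own. Cd14, the co-receptor that hands LPS to TLR4, stood at 4090.0, 3323 and 18186 scaled CPM in KO1 cultures 33, 34 and 35 at 6 h, against 783, 848 and 501 at 0 h. KO2 libraries held Cd14 at 7043 to 10030.4 (median 7639.6) at 6 h, against 413 to 596 (median 489.6) at 0 h. In KI it ran at 1942 to 4211 (median 3575) at 6 h, against 672 to 937 (median 835) at 0 h. All groups at 6 h lay above those at 0 h, culture 35 standing far above the other KO1 cultures, and the log2 fold changes were 3.59 ± 0.80 in KO1, 3.97 ± 0.17 in KO2 and 2.06 ± 0.17 in KI (± SE, adjusted p at most 8.59e-04). Tlr4 itself stood at 25.5, 15.4 and 19.2 scaled CPM in KO1 at 6 h, against 61.8, 38.7 and 118 at 0 h. KI libraries held Tlr4 at 19.9 to 30.2 (median 24.3) at 6 h, against 64.7 to 81.8 (median 76.9) at 0 h. KO2 libraries held Tlr4 at 8.57 to 21.5 (median 19) at 6 h, against 9.28 to 29.4 (median 19.8) at 0 h. Tlr4 was thus lower in KO1 and KI (-1.86 ± 0.41 and -1.63 ± 0.12, adjusted p = 7.02e-04 and 2.08e-16), while in KO2 the groups overlapped (-0.15 ± 0.20, adjusted p = 0.511). On total counts Tlr4 was called lower in KO2 too (-0.98), and in KO1 it was not with resting cultures 33 and 35 left out (-1.02, adjusted p = 0.0788).

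Ifngr1, the ligand-binding chain of the IFN-gamma receptor, stood at 22.7, 36 and 43.6 scaled CPM in KO1 at 6 h, against 196, 233 and 198 at 0 h. KO2 libraries held Ifngr1 at 31.5 to 44.8 (median 39.0) at 6 h, against 197 to 261 (median 232) at 0 h. In KI libraries Ifngr1 ran at 29.8 to 45.8 (median 35.2) at 6 h, against 261 to 346 (median 299) at 0 h. No group at 6 h reached the resting range, and the log2 fold changes were -2.62 ± 0.22, -2.56 ± 0.09 and -3.06 ± 0.10 (adjusted p at most 1.34e-08). From here, 3 log2 fold changes given together are those of KO1, KO2 and KI, and a named gene was called in all 3 unless stated. In the LPS list, the ubiquitin ligase Peli1 (4.14, 3.80 and 4.58) and the adaptor Myd88 (3.19, 3.51 and 3.08) rose, and the kinase Irak4 fell (-1.08, -1.22 and -0.97). Of 10 other Toll-like receptors, 5 rose and 1 fell (median 0.88), with 3 higher and 3 lower on total counts. Tlr1 (3.55, 4.14 and 3.18) and Tlr6 (2.40, 2.27 and 1.96), partners of TLR2 in sensing lipopeptides, and Tlr3 (2.63, 2.40 and 2.04), a receptor for double-stranded RNA, rose. Tlr13, a receptor for bacterial ribosomal RNA, fell (-3.82, -3.95 and -5.41).

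The interferon receptors and the JAK-STAT path had 10 of 15 members higher and 2 lower (median 1.57), 5 of the 10 also on total counts. Jak2, a kinase of the IFN-gamma receptor, rose by 5.03, 5.06 and 5.47 and Stat4, the transducer of interleukin-12, by 5.80, 4.73 and 5.23, while Stat6, the transducer of interleukin-4, fell (-0.95, -0.80 and -0.94). Of 24 other cytokine receptor chains, 12 rose and 6 fell (median 1.16). Il15ra, which presents interleukin-15 (6.21, 5.31 and 5.20), Il13ra1 (3.71, 4.06 and 3.60) and Il4ra (1.81, 4.25 and 3.43), the chains for interleukins 13 and 4, rose. Il6ra (-2.92, -1.88 and -3.27) and the TGF-beta receptor Tgfbr1 (-1.42, -2.21 and -2.51) fell.

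NF-kB subunits and inhibitors rose almost throughout, with 10 of 11 higher and none of the 11 lower (median 3.64), 9 of the 10 also on total counts. The IkB proteins Nfkbie (5.88, 5.57 and 5.55) and Nfkbib (3.69, 4.82 and 4.89), which hold NF-kB in the cytoplasm, and the nuclear IkB protein Nfkbiz (5.29, 5.56 and 4.50) led the list. Nfkbia, the gene of IkB-alpha that NF-kB itself induces, stood at 1704, 2124 and 2885 scaled CPM in KO1 at 6 h, against 67.7, 104 and 43.3 at 0 h. KO2 libraries held Nfkbia at 2659.7 to 4126 (median 2923) at 6 h, against 98.5 to 137 (median 109) at 0 h. In KI libraries Nfkbia ran at 1069.9 to 2515 (median 2116) at 6 h, against 98.1 to 132 (median 117) at 0 h. Every value at 6 h lay above every value at 0 h (4.97 ± 0.46, 4.75 ± 0.12 and 4.10 ± 0.15, adjusted p at most 3.75e-08). Tnfaip3, the ubiquitin-editing enzyme A20 that stops NF-kB signalling, stood at 1008, 1314 and 1849.8 scaled CPM in KO1 at 6 h, against 10.0, 16.4 and 8.92 at 0 h. KO2 libraries held Tnfaip3 at 389 to 1038 (median 863) at 6 h, against 6.19 to 10.9 (median 7.89) at 0 h. In KI libraries Tnfaip3 ran at 1495 to 1996 (median 1719.7) at 6 h, against 9.04 to 13.2 (median 10.7) at 0 h. Here too the groups were apart in each cohort (6.88 ± 0.47, 6.54 ± 0.30 and 7.31 ± 0.21, adjusted p at most 7.10e-10).

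Interferon regulatory factors had 3 of 7 members higher and none of the 7 lower (median 0.93), with 2 and 1 on total counts. Irf1, which IFN-gamma induces, stood at 1128, 1943 and 2692 scaled CPM in KO1 at 6 h, against 27.8, 32 and 55.6 at 0 h. KO2 libraries held Irf1 at 1704 to 2128 (median 1807) at 6 h, against 18.7 to 30.5 (median 23.3) at 0 h. In KI libraries Irf1 ran at 2636 to 4059 (median 3556) at 6 h, against 29.4 to 45.6 (median 36.5) at 0 h. The groups were far apart (5.64 ± 0.43, 6.31 ± 0.14 and 6.55 ± 0.13, adjusted p at most 3.29e-09). Irf8, an IRF1 partner of the macrophage lineage, rose too (4.36, 5.17 and 5.62). Irf5 was called higher (0.91, 1.51 and 0.93), but on total counts its change was -0.13 in KO1 and -0.28 in KI. Irf7, the amplifier of the type I interferon response, stood at 979.6, 837 and 2527 scaled CPM in KO1 at 6 h, against 261, 10.2 and 843 at 0 h. KO2 libraries held Irf7 at 3063 to 5380.1 (median 4761) at 6 h, against 71.5 to 159 (median 123) at 0 h. In KI libraries Irf7 ran at 2126 to 3028 (median 2447) at 6 h, against 45.8 to 74.7 (median 61.8) at 0 h. It rose in KO2 and KI (5.29 ± 0.16 and 5.35 ± 0.15, adjusted p = 6.24e-36 and 8.55e-31), while in KO1 resting culture 35 reached into the range at 6 h and the change did not pass the test (1.96 ± 0.96, adjusted p = 0.0880). Resting cultures 33 and 35 held more Irf7 than culture 34, so leaving them out had to raise the KO1 change, which was then 7.07. Without culture 35 at both times it was 2.73 (adjusted p = 0.0452). Irf7 was higher at 6 h in each of the 3 cultures, and the KO1 change was called with the culture number as a block (2.45, adjusted p = 0.0164) and without the filter on low counts (1.81, adjusted p = 3.14e-05).

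Other transcription factors changed in both directions. Of 22 AP-1, EGR, KLF and C/EBP family members, 10 rose and 5 fell (median 1.56), with 5 higher and 7 lower on total counts. Batf2 (4.83, 6.67 and 7.48) and Batf (5.98, 5.29 and 6.69), AP-1 factors that pair with IRFs, and Hif1a, the oxygen-regulated factor of glycolysis (3.93, 3.76 and 4.28), rose. The classical AP-1 members Fos (-2.45, -1.71 and -3.19) and Jun (-2.61, -2.12 and -1.97) fell, both known as immediate early genes. Nuclear receptors had 3 of 15 higher (20%) and 4 lower (26.7%), near the 21.8% and 27% of all genes (median 0.28). On total counts 0 were higher and 8 lower. Pparg, the lipid-sensing receptor (-3.70, -3.42 and -5.17), and its partners Rxra (-2.25, -2.78 and -2.23) and Rxrb (-1.70, -1.18 and -1.72) fell. The glucocorticoid receptor Nr3c1 was called higher (0.74, 0.90 and 0.89), but on total counts it was -0.31 in KO1 and -0.32 in KI. Among 14 clock genes, 4 rose and 1 fell (median -0.13), with 2 higher and 8 lower on total counts, where most genes fell. The repressor Nfil3 rose (3.43, 4.08 and 4.44) and its relative Tef fell (-2.20, -2.39 and -2.27). Bhlhe40, a clock repressor, was called higher (2.19, 0.46 and 2.0), with -0.37 in KO2 on total counts.

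Cytokine genes rose in large numbers. Of 24 inflammatory cytokines and growth factors, 19 rose and 2 fell (median 5.32), 18 of the 19 also on total counts. Tnf, the tumor necrosis factor gene, stood at 1361, 3860.1 and 2392 scaled CPM in KO1 at 6 h, against 8.37, 10.3 and 8.39 at 0 h. KO2 libraries held Tnf at 2499 to 3885 (median 2756) at 6 h, against 9.25 to 19.6 (median 11.9) at 0 h. In KI libraries Tnf ran at 4142 to 6546 (median 5528) at 6 h, against 11.4 to 17.8 (median 14.6) at 0 h. The lowest value at 6 h was above the highest at 0 h in each cohort (8.13 ± 0.48, 7.82 ± 0.16 and 8.56 ± 0.34, adjusted p at most 1.42e-10). Il6, the acute-phase cytokine, stood at 1305, 2680.2 and 2616 scaled CPM in KO1 at 6 h, against 0.322, 0.618 and 0.610 at 0 h. KO2 libraries held Il6 at 501 to 1213 (median 685) at 6 h, against 0 to 0.288 (median 0) at 0 h, when 5 of 8 libraries had no count. In KI libraries Il6 ran at 2623 to 3836 (median 2814) at 6 h, against 0.0596 to 0.766 (median 0.456) at 0 h. Resting levels were thus at or near 0, and the log2 fold changes were 12.03 ± 0.93, 12.85 ± 0.29 and 12.85 ± 0.40 (adjusted p at most 3.75e-09). Il12b, the p40 chain of interleukins 12 and 23, reached 18543 to 23157 scaled CPM at 6 h, against 0.266 to 5.16 at 0 h in KI, and rose by 13.10, 12.99 and 13.07. Il1a, interleukin-1 alpha, reached 1233 to 1713 scaled CPM at 6 h, against 0 to 0.516 at 0 h in KI (11.59, 12.45 and 12.40). Il10, the anti-inflammatory cytokine, stood at 12.8, 4.69 and 17.6 scaled CPM in KO1 at 6 h, against 0.515, 0.675 and 0.839 at 0 h. KO2 libraries held Il10 at 21.8 to 32.9 (median 26.4) at 6 h, against 0.197 to 1.29 (median 0.869) at 0 h. In KI libraries Il10 ran at 5.13 to 8.31 (median 6.23) at 6 h, against 0 to 0.656 (median 0.349) at 0 h. It was higher without overlap in all 3 (4.10 ± 0.77, 4.88 ± 0.24 and 4.05 ± 0.34, adjusted p at most 1.76e-04). The growth factors Pdgfb (-1.71, -1.81 and -1.67) and Igf1 (-1.31, -1.49 and -2.37) fell.

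Ifnb1, interferon-beta, had few counts at 6 h, with 3.40, 6.95 and 12.1 scaled CPM in KO1, against 0, 0 and 0.305 at 0 h. In KI libraries Ifnb1 ran at 4.66 to 7.32 (median 5.86) at 6 h, against 0 to 0.119 (median 0) at 0 h, and in KO2 at 0 to 1.58 (median 0.736) at 6 h, against 0 to 0.143 (median 0) at 0 h. It was called higher in KO1 (6.24 ± 0.77, adjusted p = 1.63e-06) and in KI (adjusted p = 1.07e-14), and its groups overlapped in KO2, where 21 counts at 6 h and 1 at 0 h were too few for the filter. No interferon ligand passed the filter in all 3 cohorts.

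All but 1 of 10 CC chemokines rose and none of the 10 fell (median 7.61), and so did 8 of 11 CXC chemokines with 1 lower (median 6.90). On total counts 9 and 7 of these risers held. Cxcl10, a CXCR3 ligand that draws activated T cells, stood at 8003, 6701 and 13801 scaled CPM in KO1 at 6 h, against 3.80, 4.50 and 21.7 at 0 h. KO2 libraries held Cxcl10 at 4326 to 6276 (median 5022) at 6 h, against 0.141 to 2.16 (median 0.789) at 0 h. In KI libraries Cxcl10 ran at 4101 to 6956 (median 5937) at 6 h, against 5.25 to 9.42 (median 7.63) at 0 h. The groups lay far apart in every cohort (9.90 ± 0.79, 12.28 ± 0.29 and 9.57 ± 0.19, adjusted p at most 5.29e-09). The related CXCR3 ligands Cxcl9 (11.48, 15.33 and 13.27) and Cxcl11 (8.39, 9.12 and 8.90) rose too. Ccl5, which draws T cells and monocytes, stood at 8546, 12115 and 15452 scaled CPM in KO1 at 6 h, against 108, 10.5 and 1691 at 0 h. KO2 libraries held Ccl5 at 14003 to 24020.2 (median 17352) at 6 h, against 2.05 to 6.89 (median 4.98) at 0 h. In KI libraries Ccl5 ran at 11358 to 17511 (median 16301) at 6 h, against 9.84 to 18.6 (median 11.7) at 0 h. No groups overlapped, but the resting KO1 cultures differed widely, culture 35 being the highest, and the log2 fold changes were 4.32 ± 1.23, 11.92 ± 0.25 and 10.28 ± 0.31 (adjusted p at most 0.00583). Culture 34 was the lowest at rest, so leaving out resting cultures 33 and 35 had to raise the KO1 change, which was then 10.09. Ccl22, a ligand of CCR4, rose by 9.69, 8.32 and 10.30. Ccl12, a monocyte attractant, had no count in any resting KO2 library and was at least 529-fold higher at 6 h there, against a floor of 3 counts over the group. Cxcl14 fell (-1.77, -2.02 and -2.65).

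Chemoattractant, purine and lipid receptors had 12 of 28 higher and 8 lower (median 0.79), 9 of the 12 also on total counts. Adora2a, an adenosine receptor (7.19, 9.17 and 9.18), Ccrl2, a decoy receptor (7.84, 7.07 and 7.80), and Fpr2, a formyl peptide receptor (6.77, 8.70 and 7.32), rose. Cxcr4 fell (-5.08 ± 0.50 in KO1 and -6.14 ± 0.32 in KI), and in KO2 the 8 libraries held 1 count at 6 h, against 572 at 0 h. Feedback inhibitors had 19 of 30 higher and 4 lower (median 2.30), 14 of the 19 also on total counts. Socs3, an inhibitor of JAK signalling, stood at 94.7, 166 and 135 scaled CPM in KO1 at 6 h, against 0.0644, 0.731 and 0.534 at 0 h. KO2 libraries held Socs3 at 1512 to 3261 (median 2919.7) at 6 h, against 0.223 to 3.19 (median 1.25) at 0 h. In KI libraries Socs3 ran at 769 to 2326 (median 1329) at 6 h, against 1.72 to 6.59 (median 4.67) at 0 h. Groups did not overlap (8.16 ± 0.59, 10.97 ± 0.29 and 8.22 ± 0.31, adjusted p at most 1.72e-09), and the KO1 cultures at 6 h lay below all KO2 and KI libraries, though the tables were scaled separately. Il1rn, the interleukin-1 receptor antagonist, rose by 7.66, 11.11 and 10.99, and Socs1 by 11.12 ± 0.32 in KO2 and 8.96 ± 0.65 in KI, with 287 counts at 6 h against 3 at 0 h in KO1. Rgs2, a regulator of G protein signalling (-3.35, -3.80 and -3.78), and Dusp6, a phosphatase of ERK kinases (-2.81, -1.18 and -3.11), fell.

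**Figure D4:**
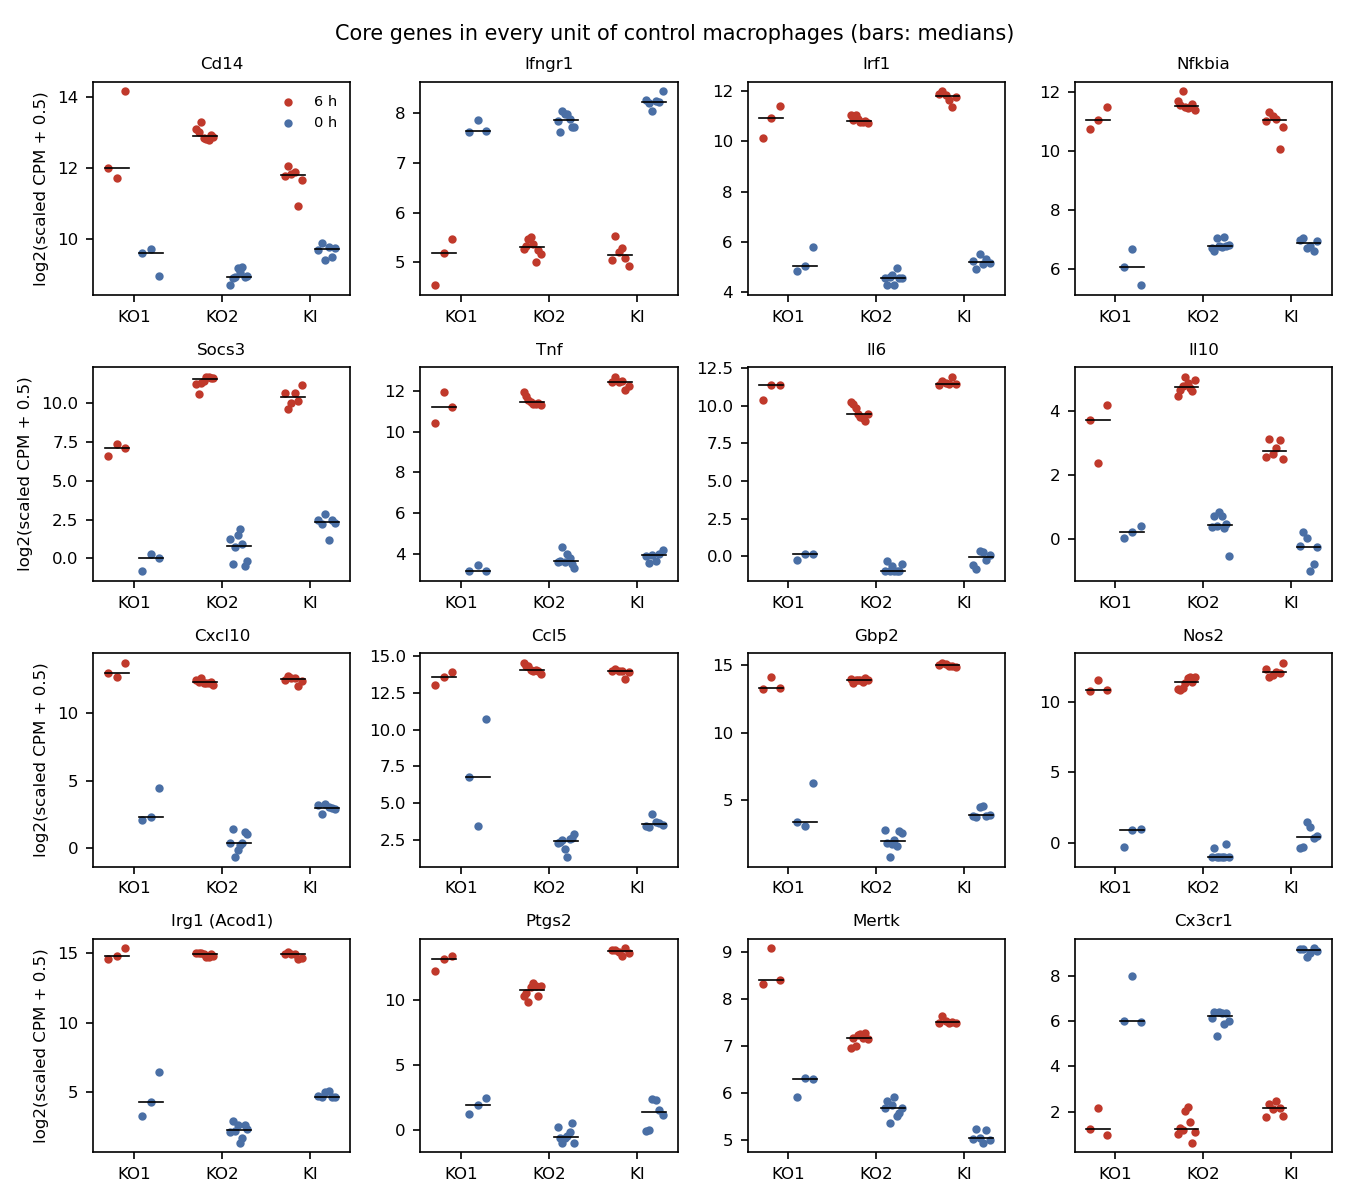
Level of 16 genes in every culture (KO1) or library (KO2, KI) as log2(scaled CPM + 0.5), 6 h left of 0 h in each cohort, with bars at the medians. Of these genes Ifngr1 and Cx3cr1 lie lower at 6 h, the other 14 lie higher, and the resting KO1 cultures of Ccl5 spread from 10.5 to 1691 scaled CPM.

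Interferon-stimulated genes rose as a body. Of 45 tested in all 3 cohorts, 39 were higher and none of the 45 lower (median 4.70), 35 of the 39 also on total counts. Oasl1, an antiviral regulator (5.57, 9.19 and 9.14), Ifit2 (4.65, 8.76 and 7.99), which binds viral RNA, and the ubiquitin-like Isg15 (3.87, 8.31 and 7.92) led. All of these changed least in KO1, where the mean log2 CPM of the list was 8.26, 7.71 and 8.72 in cultures 33, 34 and 35 at 6 h, against 5.84, 4.14 and 7.40 at 0 h. KO2 libraries lay at 7.55 to 7.90 at 6 h, against 3.27 to 3.99 at 0 h, and KI libraries at 8.06 to 8.16 at 6 h, against 4.42 to 4.72 at 0 h. In KO1 39 of 46 members were called higher (median 2.95). With resting cultures 33 and 35 left out the median was 4.79. That setting, which leaves 1 resting culture and assumes that it varies like the other groups, was chosen after seeing the data. It keeps the culture with the lowest resting level of this list, so larger changes followed from the choice. It put Isg15 at 5.05, Ifit2 at 9.55 and Oasl1 at 8.81 in KO1.

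The interferon-inducible GTPases, which attack the vacuoles of pathogens, all rose, 19 of 19 (median 7.5), on total counts too. Gbp2 stood at 9408, 17909 and 10117 scaled CPM in KO1 at 6 h, against 10.3, 7.98 and 75.9 at 0 h. KO2 libraries held Gbp2 at 12802 to 16534 (median 14969) at 6 h, against 1.27 to 6.46 (median 3.41) at 0 h. In KI libraries Gbp2 ran at 29652 to 36436 (median 31943) at 6 h, against 13.1 to 23.9 (median 14.6) at 0 h. The groups stood far apart, with culture 35 the highest at rest in KO1 (8.64 ± 0.89, 11.88 ± 0.27 and 10.90 ± 0.30, adjusted p at most 1.61e-07). Gbp5 (9.94, 13.32 and 12.10), Gbp4 (9.12, 12.03 and 11.75) and Iigp1 (7.49, 12.41 and 11.75) rose too, and the split of reads between such similar copies is uncertain. Of 18 nucleic acid sensors, 17 rose and 1 fell (median 4.80), 13 of the 17 also on total counts. Ifi205 (7.00, 10.85 and 11.47) and Mnda (3.81, 6.86 and 7.05), similar members of the PYHIN family, and Zbp1, a sensor of Z-form nucleic acid (3.75, 7.06 and 6.86), rose. Mavs, the mitochondrial adaptor of RNA sensing, fell (-1.93, -1.89 and -2.03).

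Antigen presentation rose in parts. MHC class I genes and their loading factors had 7 of 19 higher and 1 lower in all 3 cohorts (median 2.50), with 16 higher in KO2, 16 in KI and 7 in KO1. On total counts 4 of the 19 rose and 3 fell. The peptide transporter genes Tap1 (3.44, 6.08 and 6.17) and Tap2 (2.73, 4.29 and 3.95) and the class I activator Nlrc5 (3.76, 4.90 and 4.84) rose, and the chaperone Calr fell (-0.97, -0.92 and -0.39). The shared count of the list was 12 with a replicate block and 13 with resting cultures 33 and 35 of KO1 left out. Of 30 proteasome genes, 16 rose and 1 fell (median 0.98), but on total counts 9 rose and 10 fell. The activator subunit Psme2 (3.67, 4.78 and 4.87) and the immunoproteasome subunits Psmb9 (2.76, 3.91 and 4.29) and Psmb8 (2.02, 3.80 and 3.42) led, and Psma1, of the constitutive core, fell (-0.79, -0.29 and -0.34). MHC class II genes had 5 of 11 higher and none of the 11 lower (median 2.38), with 2 higher and 1 lower on total counts. Ciita, their master regulator, stood at 16.1, 21 and 9.94 scaled CPM in KO1 at 6 h, against 0.579, 0.899 and 0.687 at 0 h. KO2 libraries held Ciita at 12.7 to 23.4 (median 17.9) at 6 h, against 0 to 1.60 (median 0.869) at 0 h. In KI libraries Ciita ran at 43.7 to 81.6 (median 74.7) at 6 h, against 4.29 to 4.78 (median 4.53) at 0 h. All values at 6 h exceeded those at 0 h (4.41 ± 0.70, 4.28 ± 0.28 and 3.94 ± 0.16, adjusted p at most 3.08e-05). H2-Ab1 (2.35, 4.83 and 4.27) and H2-Aa (1.52, 2.88 and 2.72), the class II chains, rose, H2-Aa without a call in KO1 on total counts (0.47).

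Co-stimulatory and surface activation genes rose nearly throughout, with 17 of 19 higher and 1 lower (median 4.79), 15 of the 17 also on total counts. Cd40, the receptor for T cell help, reached 10863 to 19895 scaled CPM at 6 h, against 2.57 to 5.85 at 0 h in KI (10.51, 11.37 and 11.87). Cd69, an early activation marker (10.19, 10.26 and 10.36), and Slamf1 (6.84, 8.68 and 9.48) rose, and the inhibitory receptor Cd200r1 fell (-1.72, -0.87 and -1.47). Phagocytic and scavenger receptors had 11 of 36 higher (30.6%, beside 21.8% of all genes) and 10 lower (27.8%, beside 27%), with a median of 0.42. On total counts 8 were higher and 16 lower. Clec4e, the receptor Mincle for mycobacterial glycolipid (7.94, 7.52 and 6.80), Fcgr4, an activating IgG receptor (4.33, 6.18 and 6.06), and Olr1, a receptor for oxidised LDL (3.80, 4.28 and 6.84), rose. Cd300lb (-6.25, -5.05 and -6.15) and Cd300a (-3.31, -3.65 and -3.67), lipid-binding receptors, fell. Mertk, a receptor for the uptake of dying cells, stood at 316, 536 and 336 scaled CPM in KO1 at 6 h, against 59.2, 79.0 and 78.3 at 0 h. KO2 libraries held Mertk at 124 to 154 (median 143) at 6 h, against 40.7 to 60.0 (median 50.6) at 0 h. In KI libraries Mertk ran at 178 to 197 (median 181) at 6 h, against 30.1 to 36.8 (median 32.3) at 0 h. It was higher without overlap in each cohort (2.46 ± 0.28, 1.5 ± 0.11 and 2.46 ± 0.13, adjusted p at most 5.70e-07). Complement genes had 6 of 10 higher and none of the 10 lower (median 0.69), with 4 higher and 3 lower on total counts. C3 (4.03, 6.34 and 5.67), the centre of the cascade, and C1ra (2.75, 4.29 and 3.77) rose, and C1qb was called higher (0.78, 0.89 and 0.61), with -0.26 in KO1 and -0.60 in KI on total counts.

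The genes that mark macrophage identity fell more often than they rose, as did all genes tested. Of 29 lineage and tissue macrophage genes, 11 fell (37.9%, beside 27% of all genes) and 7 rose (24.1%, beside 21.8%), with a median of -0.62. On total counts 16 were lower and 2 higher, where 6281 of all 10612 genes were lower and 1050 higher. Csf1r, the receptor for M-CSF, stood at 547, 617 and 516 scaled CPM in KO1 at 6 h, against 2108, 2225 and 1899 at 0 h. KO2 libraries held Csf1r at 519.8 to 946 (median 882) at 6 h, against 844 to 3223 (median 2706) at 0 h. In KI libraries Csf1r ran at 1322 to 2419 (median 2020.0) at 6 h, against 7238 to 8105 (median 7693) at 0 h. The groups were apart in KO1 and KI and overlapped in KO2, and it was called lower in all 3 (-1.89 ± 0.30, -1.55 ± 0.19 and -1.96 ± 0.10, adjusted p at most 2.83e-05). Cx3cr1, the fractalkine receptor, stood at 1.85, 4.04 and 1.49 scaled CPM in KO1 at 6 h, against 64.0, 254 and 61.2 at 0 h. KO2 libraries held Cx3cr1 at 1.05 to 4.16 (median 1.85) at 6 h, against 39.7 to 82.8 (median 74.7) at 0 h. In KI libraries Cx3cr1 ran at 2.94 to 5.13 (median 3.92) at 6 h, against 447 to 585 (median 555) at 0 h. This fall left a few CPM in every cohort (-5.68 ± 0.54, -4.88 ± 0.25 and -7.11 ± 0.16, adjusted p at most 4.92e-08). Mef2c, a factor of myeloid cells, fell as well (-4.24, -3.63 and -4.25). Among the risers of this list were Mertk and Irf8, given above. Of the 10 markers used to check the cell type, Cd68, Tyrobp and Csf1r fell in all 3 cohorts. Another 3 rose, Cd14 and Mertk among them. Of 7 monocyte markers tested in all 3 cohorts, 3 rose in all 3, Vcan and Hp among them, and in KI 5 of 8 were called higher and 2 lower. Among 8 genes of alternative activation, 3 rose and 1 fell (median 0.46), with 2 and 2 on total counts, and Tgm2 was called higher (0.72, 1.60 and 2.62), with -0.31 in KO1 on total counts. Lck, a T cell kinase and the one T and NK marker that could be tested in all 3, was higher (5.98, 6.85 and 8.96), with a mean of 47.1 CPM in KI at 6 h, against 0.276 at 0 h.

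Arginine and nitric oxide genes had 5 of 17 higher and 7 lower (median -0.47), the 5 also on total counts. Nos2, the inducible nitric oxide synthase, stood at 1778, 2930.5 and 1845 scaled CPM in KO1 at 6 h, against 0.322, 1.35 and 1.45 at 0 h. KO2 libraries held Nos2 at 1821 to 3506 (median 2674) at 6 h, against 0 to 0.447 (median 0) at 0 h, when 6 of 8 had no count. In KI libraries Nos2 ran at 3442 to 7003 (median 4343) at 6 h, against 0.266 to 2.22 (median 0.839) at 0 h. The enzyme's RNA was thus near 0 at rest in every cohort (11.03 ± 0.62, 14.61 ± 0.39 and 12.22 ± 0.53, adjusted p at most 8.38e-11). Slc7a2, which imports its substrate arginine, rose (6.57, 8.85 and 7.52). Spr, which makes the cofactor tetrahydrobiopterin (-2.75, -2.06 and -2.15), Asl, which remakes arginine (-1.27, -1.14 and -1.04), and Sat1, a polyamine acetylase (-1.09, -1.72 and -1.74), fell.

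In the TCA cycle and itaconate list, 1 of 23 members rose and 14 fell (median -0.60), with 1 and 22 on total counts. The riser was Irg1 (Acod1), which makes itaconate from cis-aconitate, and it stood at 24822, 28494 and 41521 scaled CPM in KO1 at 6 h, against 9.34, 18.9 and 86.0 at 0 h. KO2 libraries held Irg1 at 26787 to 33446 (median 31246) at 6 h, against 2.05 to 7.06 (median 4.30) at 0 h. In KI libraries Irg1 ran at 24329 to 35383 (median 31232) at 6 h, against 23.9 to 32.5 (median 24.9) at 0 h. No value at 0 h came near those at 6 h (9.70 ± 0.86, 12.71 ± 0.23 and 10.13 ± 0.26, adjusted p at most 2.29e-08). The isocitrate dehydrogenases Idh1 (-3.99, -4.05 and -5.45) and Idh2 (-1.79, -2.27 and -2.86) and the cytosolic aconitase Aco1 (-2.31, -1.91 and -2.19) fell most, Idh1 with 6.57 to 12.2 scaled CPM at 6 h, against 385 to 454 at 0 h in KI. Glycolysis moved the other way, 14 of 21 higher and 1 lower (median 1.73), with 8 higher and 4 lower on total counts and 9 higher with resting cultures 33 and 35 of KO1 left out. Slc2a6 (6.83, 7.46 and 5.56), a sugar transporter relative, Hk3 (3.13, 3.93 and 5.28), a hexokinase, and Pfkp (3.63, 3.78 and 5.54), a phosphofructokinase, rose, and Pfkfb4 fell (-3.22, -2.32 and -2.79). Nuclear genes of oxidative phosphorylation had 9 of 29 lower and 6 higher (median -0.17), but 21 lower and 1 higher on total counts. The complex I genes Ndufb8 (-1.45, -0.60 and -1.01), Ndufs7 (-1.48, -0.80 and -0.97) and Ndufs8 (-0.90, -0.68 and -0.85) fell, while Ndufs4 (2.10, 1.38 and 2.74) and the complex III gene Uqcrfs1 (1.36, 1.26 and 1.73) rose, Uqcrfs1 without a call in KO1 on total counts (0.32). Of 12 genes of the mitochondrial genome, mt-Co1 was called higher (0.91, 0.40 and 0.51) and none of the 12 lower (median 0.00), but on total counts 2 of the 12 were lower and mt-Co1 was -0.10, -0.43 and -0.68.

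Prostaglandin and leukotriene genes divided by enzyme, 5 of 13 higher and 6 lower (median -0.58). Ptgs2, the inducible cyclooxygenase, stood at 4766, 8929 and 10468 scaled CPM in KO1 at 6 h, against 1.80, 3.2 and 4.81 at 0 h. KO2 libraries held Ptgs2 at 919 to 2556 (median 1753) at 6 h, against 0 to 0.894 (median 0.186) at 0 h. In KI libraries Ptgs2 ran at 10388 to 15776 (median 13899.7) at 6 h, against 0.443 to 4.75 (median 2.04) at 0 h. Every library at 6 h was far above rest (11.27 ± 0.72, 12.40 ± 0.43 and 12.57 ± 0.55, adjusted p at most 3.40e-10), and Ptges, the prostaglandin E synthase, rose with it (6.70, 6.55 and 4.47). Ptgs1, the constitutive cyclooxygenase (-3.04, -3.44 and -3.50), Lta4h of leukotriene B4 synthesis (-2.37, -2.54 and -2.35) and Hpgds of prostaglandin D2 synthesis (-2.47, -2.20 and -2.20) fell. Cholesterol and lipoprotein genes had 4 of 26 higher and 6 lower (median -0.11), with 2 and 15 on total counts. Ch25h, which makes 25-hydroxycholesterol (9.78, 10.33 and 8.57), rose, and Lrp1 (-3.31, -2.86 and -2.63), the cholesterol exporter Abca1 (-2.22, -2.0 and -2.51) and Npc1 of lysosomal cholesterol export (-1.94, -2.66 and -2.35) fell.

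Iron genes had 7 of 17 higher and 7 lower (median 0.48), with 4 and 9 on total counts. The ferroxidase Cp (4.67, 5.87 and 4.21), the metal-binding Mt2 (2.65, 4.43 and 4.69) and the siderophore binder Lcn2 (2.26, 8.29 and 2.95) rose, Mt2 without a call in KO1 on total counts (1.66). Steap3, a ferrireductase (-3.62, -4.23 and -5.84), and Slc40a1, the iron exporter ferroportin (-2.77, -3.42 and -1.83), fell. NADPH oxidase and antioxidant genes had 11 of 24 higher and 5 lower (median 0.23), but 7 and 12 on total counts. The mitochondrial superoxide dismutase Sod2 (6.28, 6.40 and 6.57), the cystine transporter Slc7a11 (3.37, 3.88 and 4.57) and the peroxiredoxin Prdx5 (2.97, 3.74 and 4.33) rose, and the peroxidase Gpx1 (-2.09, -2.64 and -3.19) and catalase Cat (-1.79, -2.38 and -2.62) fell.

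Autophagy genes, the process in which Beclin1 acts, had 18 of 39 lower and 5 higher (median -0.45), with 28 lower and 2 higher on total counts. Becn1 itself stood at 25.6, 32.3 and 31.5 scaled CPM in KO1 at 6 h, against 29.9, 36.9 and 29.1 at 0 h. KO2 libraries held Becn1 at 27.7 to 49.6 (median 37.3) at 6 h, against 28.3 to 36.8 (median 34.1) at 0 h. In KI libraries Becn1 ran at 36 to 46.8 (median 41.2) at 6 h, against 27.3 to 36 (median 29.6) at 0 h. In scaled CPM the times overlapped in every cohort, and the change did not pass the test in KO1 (-0.10 ± 0.20, adjusted p = 0.669) or KO2 (0.20 ± 0.13, adjusted p = 0.160). In KI it was called higher (0.46 ± 0.09, adjusted p = 1.27e-05), but not without the filter on low counts (0.26, adjusted p = 0.0983). On total counts Becn1 was called lower in all 3 cohorts (-1.14, -0.64 and -0.74, adjusted p at most 3.86e-04). In plain CPM every value at 6 h lay below every value at 0 h in each cohort. The direction for Becn1 thus depends on the scaling. The receptor Calcoco1 (-3.36, -2.74 and -2.21), the kinase Ulk2 (-2.57, -1.89 and -2.61) and the conjugation enzyme Atg7 (-2.41, -2.22 and -2.75) fell. The cargo receptors Tax1bp1 (2.10, 2.93 and 3.12) and Optn (2.02, 1.73 and 2.48) rose. Of 33 lysosome genes, 15 fell and 5 rose (median -0.45), with 25 lower and 1 higher on total counts. Tfeb, the factor that drives lysosome genes, fell (-2.55 ± 0.19 in KO2 and -3.59 ± 0.31 in KI, with 3 counts at 6 h against 243 at 0 h in KO1), and so did the acid lipase Lipa (-2.41, -2.96 and -2.93). The protease Ctsc (4.47, 5.71 and 4.13) rose, and Mitf, a relative of Tfeb, was called higher (1.69, 1.14 and 1.46) but not in KI on total counts (0.27).

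Inflammasome genes had 7 of 14 higher and 3 lower (median 0.67), but 5 higher and 6 lower on total counts. Casp4, the sensor of cytosolic LPS also known as caspase-11 in mice (4.42, 5.21 and 5.83), the receptor Nlrp3 (5.04, 4.47 and 3.82) and pyrin, Mefv (4.63, 5.09 and 4.24), rose. Nlrp1b (-2.08, -3.02 and -2.04) and Txnip (-1.81, -0.80 and -1.66) fell. Of 26 apoptosis genes, 15 rose and 3 fell (median 1.40), 10 of the 15 also on total counts. Bcl2a1d (9.33, 10.36 and 11.28) and Bcl2a1b (6.26, 7.80 and 7.73), survival genes of nearly identical sequence whose reads the counting may split or swap, led, and the death genes Bmf (-3.75, -4.89 and -5.50) and Casp9 (-1.11, -0.49 and -1.18) fell.

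Genes of DNA replication fell, 16 of 23 lower and 1 higher (median -1.55). Mcm6 (-3.00, -2.33 and -2.91) and Mcm7 (-4.48, -2.39 and -1.94) of the replicative helicase and the S-phase factor E2f1 (-3.19, -1.87 and -2.80) were among those that fell. Tyms was called higher (0.82, 1.15 and 1.47), with -0.21 in KO1 on total counts and no call in KO2 or KI there. Mitosis genes had 7 of 16 lower and 1 higher (median -1.13; 12 lower and 1 higher on total counts), with Cenpa of the centromere falling (-3.33, -3.25 and -3.61) and Tpx2 of the spindle rising (2.31, 2.95 and 3.40). Cyclin D genes and cell cycle inhibitors had 5 of 14 higher and 4 lower (median 0.48), with 3 and 5 on total counts. Ccnd2 (7.28, 10.00 and 9.60), the inhibitor Cdkn1a (3.94, 5.30 and 6.22) and the pocket protein Rbl1 (3.27, 3.26 and 4.01) rose, and Rb1 (-1.82, -1.85 and -2.31) and Cdk2 (-2.43, -1.78 and -1.58) fell. Ribosome biogenesis factors had 6 of 19 lower and none of the 19 higher (median -0.43), with 17 lower on total counts, among them Dkc1 (-1.46, -1.51 and -0.94), Nop16 (-2.30, -1.12 and -0.73) and Pes1 (-1.60, -0.65 and -0.48). Genes of the endoplasmic reticulum stress response had 5 of 23 lower and 2 higher (median -0.47), but 17 lower and 0 higher on total counts, and 8 lower without the filter on low counts. The chaperone partners Sdf2l1 (-1.63, -1.45 and -1.47) and Pdia4 (-1.20, -1.71 and -1.35) and the stress sensor Ern1 (-1.52, -1.27 and -0.67) fell. Hspa5, the chaperone BiP, was called higher (1.16, 1.46 and 1.31) but not in KO1 or KI on total counts (0.12 and 0.10), and Edem1 (1.46, 0.76 and 1.23) was -0.051 in KO2 there and not called in KO1 or KI.

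Matrix proteases, coagulation and fibrinolysis genes had 11 of 22 higher and 4 lower (median 1.29), with 9 higher and 7 lower on total counts. The collagenase Mmp13 (10.28, 10.18 and 10.76), the protein C receptor Procr (9.96, 8.45 and 9.79) and Serpinb2, an inhibitor of plasminogen activators (5.13 ± 0.50 in KO1 and 6.80 ± 0.41 in KO2, with 2924 counts at 6 h against 3 at 0 h in KI), rose. The plasminogen activator Plau (-5.55, -3.66 and -1.75) and the protease Adam8 (-2.27, -1.59 and -2.97) fell.

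Outside the lists, 20 genes are named as the 10 steepest shared risers and fallers with enough counts. Serpina3f, a serine protease inhibitor, had no count at rest in KO2 and was at least 2872-fold higher at 6 h there, and rose by 11.17 ± 0.58 in KO1 and 12.74 ± 0.33 in KI. Its near copy Serpina3g rose by 10.18 ± 0.66 in KO1 and 11.92 ± 0.36 in KI, with 14787 counts at 6 h against 1 at 0 h in KO2, and the share of reads between the pair is uncertain. Lad1, ladinin, had no resting count in KO2 and KI and was at least 699-fold and 2308-fold higher there, with 441 counts at 6 h against 1 at 0 h in KO1. Upp1, uridine phosphorylase, reached 746 to 1163 scaled CPM at 6 h, against 0 to 0.613 at 0 h in KI (10.64, 13.62 and 11.65). Cnn3, a calponin, rose by 7.69, 10.35 and 11.23, Tarm1, a receptor of myeloid cells, by 9.69, 7.42 and 9.02, and AW112010, AA467197 and Fam26f by 7.63, 11.89 and 10.68, by 8.72, 10.36 and 10.90 and by 9.76, 11.29 and 10.26. Saa3, an acute-phase serum amyloid, reached 348 to 1101 scaled CPM at 6 h, against 2.30 to 86.9 at 0 h in KO1, 5856 to 10369 scaled CPM at 6 h, against 0.223 to 1.77 at 0 h in KO2 and 1352 to 2208 scaled CPM at 6 h, against 1.84 to 4.36 at 0 h in KI (4.45, 12.72 and 9.31). Resting KO1 cultures spread widely. With cultures 33 and 35 left out, a setting chosen after seeing the data, the KO1 change was 8.29.

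Among fallers outside the lists, Angptl4, an inhibitor of lipoprotein lipase, stood at 0 to 0.643 scaled CPM at 6 h, against 7.74 to 13.7 at 0 h in KI (-5.44, -6.08 and -6.36). Sesn1, a sestrin that restrains mTORC1 (-5.77, -6.03 and -7.07), Cerk, ceramide kinase (-5.11, -5.71 and -5.93), Tmem86a, a lysoplasmalogenase (-5.76, -5.11 and -5.75), and Klc4, a kinesin light chain (-6.04, -5.72 and -5.38), fell, as did Tmem37 (-5.55, -6.67 and -7.89) and Pald1 (-5.94, -5.59 and -6.15). Engase, an endoglucosaminidase, fell in KO1 (-4.94 ± 0.59), and held 1 count at 6 h against 371 at 0 h in KO2 and 0 counts against 507 in KI. Rnf144b, an E3 ubiquitin ligase, was -3.46 ± 0.49 in KO1 and -5.27 ± 0.52 in KO2, with 2 counts at 6 h against 335 at 0 h in KI. Arhgap19, a GTPase-activating protein, was -4.44 ± 0.45 in KO1 and -5.78 ± 0.34 in KI, with 3 counts at 6 h against 988 at 0 h in KO2.

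The size of the change was compared between cohorts in 1 model. In a fit of all 3 cohorts over 12106 genes, the change differed between cohorts for 3278 (27.1%). Pairwise, 1774 genes differed between KO1 and KO2, 1677 between KO1 and KI and 2049 between KO2 and KI. Of the risers past 2-fold 591 of 1173 in this fit differed, and of the fallers 260 of 957. Among 23 core genes chosen for their roles, 13 differed. Ccl5 rose less in KO1 than in KO2 (difference -7.52 ± 0.88, adjusted p = 8.54e-08) and KI (-5.79 ± 0.84, adjusted p = 2.69e-06), and the change was likewise smaller in KO1 for Gbp2 (-3.15 ± 0.55, adjusted p = 7.74e-05 and -2.08 ± 0.54, adjusted p = 0.00610) and Irf7 (-3.23 ± 0.65, adjusted p = 5.55e-04 and -3.21 ± 0.68, adjusted p = 7.79e-04). All 3 genes stood higher in resting KO1 cultures 33 and 35 than in culture 34. For Gbp2 culture 33 lay close to culture 34 (10.3 and 7.98 scaled CPM, beside 75.9 in culture 35). Leaving out resting cultures 33 and 35 thus had to raise the KO1 changes, which were then 10.09 for Ccl5, 10.54 for Gbp2 and 7.07 for Irf7. Socs3 rose more in KO2 than in KI (2.83 ± 0.43, adjusted p = 3.26e-06), as did Irg1 (2.67 ± 0.38, adjusted p = 1.32e-06), Cxcl10 (2.80 ± 0.44, adjusted p = 7.07e-06) and Cd14 (2.0 ± 0.31, adjusted p = 5.18e-06). Mertk rose less in KO2 than in KI (-0.87 ± 0.15, adjusted p = 5.18e-05). Cx3cr1 (2.32 ± 0.44, adjusted p = 1.37e-04) fell less in KO2 than in KI. For Tnf, Il6, Il10, Irf1, Tnfaip3, Ptgs2, Ciita, Csf1r, Ifnb1 and Becn1 the test of a difference over the 3 cohorts did not pass, which does not show that they changed alike. For Il6 the difference between KO1 and KO2 was -0.80 ± 0.70, adjusted p = 0.490, and for Tnf between KO2 and KI it was -0.65 ± 0.24, adjusted p = 0.0489.

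**Figure D5:**
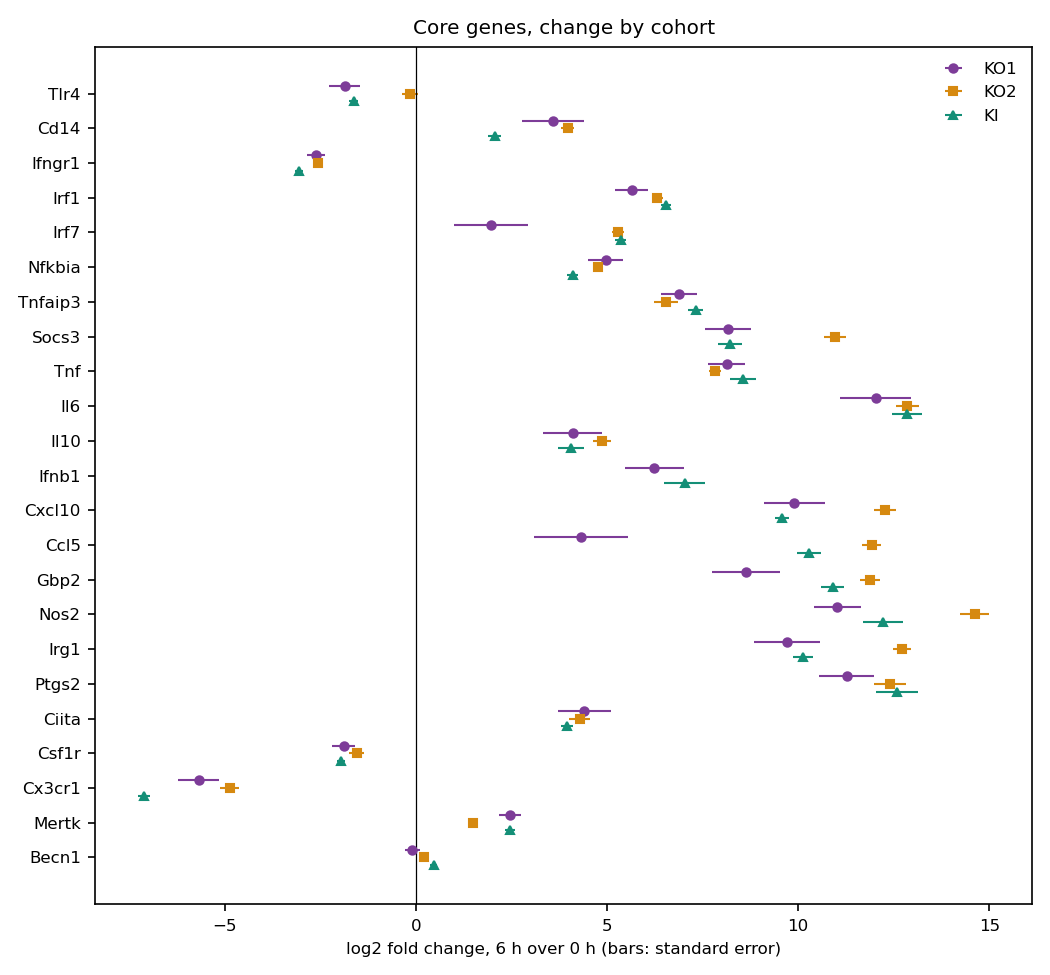
Log2 fold change, 6 h over 0 h, of 23 core genes in KO1, KO2 and KI, with standard errors as bars. Ccl5 and Irf7 lie lowest in KO1 (Ccl5 4.32 against 11.92 in KO2 and 10.28 in KI). Becn1 lies near 0 in all 3 with TMM scaling.

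The shared genes were also looked up in mutant macrophages of the same cohorts, which share the stimulus but neither the samples nor the genotype. Their changes came from the same fit per cohort, with the same filter, scaling and estimate of spread, so they are not separate tests. The share of all genes called in all 3 mutant groups is not given here, so the counts below are a description. Of the 2317 shared risers, 2090 (90.2%) were called higher at 6 h in the mutant cells of all 3 cohorts, and of the 2870 shared fallers 2543 (88.6%) were called lower. Past 2-fold these were 1169 of 1175 (99.5%) and 953 of 957 (99.6%). A difference between mutant and control cells in the change at 6 h was tested by edgeR's quasi-likelihood test. The test covered 13693 genes in KO1, 10794 in KO2 and 11500 in KI. It called 0, 439 and 380 genes, with 607, 1786 and 1796 at an unadjusted p under 0.05.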

How the data were processed

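RNA of control macrophages was measured by Smart-Seq2 in 46 samples. The authors deposited 1 table per cohort of raw counts per gene symbol and library, whole numbers for the same 34573 symbols, with TopHat, HTSeq and build mm10 per the submitters' processing notes; versions and annotation are not given in the sources used here. Reads are unstranded, so counts of overlapping or antisense genes cannot be told apart, and PCR copies are not marked. Floors of 3 counts cover counting error only.

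KO1 libraries were summed by culture number. Genes passed filterByExpr, were scaled by TMM and tested in edgeR 4.0.16 (R 4.3.3) by the quasi-likelihood test, in 1 fit per cohort over its 6 groups of control and mutant cells at 0 h, 6 h and 24 h, with Benjamini-Hochberg adjustment over all genes tested. Changes past 2-fold used glmTreat, an edgeR test against that size, at an adjusted p of 0.05. Differences between cohorts came from a joint edgeR fit of all 3. Standard errors were taken from the log2 fold change and its F statistic. The fits were also run on simulated counts in which few genes changed, as many up as down. That setting does not cover the scaling under a change as broad as here.

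Members, 45 function lists, 9 marker lists (1013 distinct genes, 2 entries not found) and 23 core genes were chosen with earlier results of these data known. Named genes are the core genes, members of each list and genes outside the lists. From each list came the 3 members of its majority direction and up to 2 of the other, by largest middle log2 fold change. From outside the lists came the 10 steepest in each direction. Both were taken among genes called alike in all 3 cohorts. The log2 of their mean CPM reached 3 at 6 h or 0 h in every cohort. A gene could thus pass through its higher group alone. Lck, Vcan, Hp, Cd68 and Tyrobp were chosen after their values were seen. Some genes that the rule names are not reported here. Promoters come from RefSeq's table, build GRCm38.p6. Alternatives were total counts alone, DESeq2 1.42.0, edgeR with DESeq2's size factors, genes unfiltered, only the 2 groups compared, a replicate block, repeat numbers summed in KO2 and KI, each KO1 culture left out and samples with conflicting labels left out. Leaving out resting KO1 cultures 33 and 35 was added after seeing the data. KI control replicate 1 at 6 h is labelled 6 h in its title and 24 h in its description and was grouped by its title.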

Additional observations from a re-analysis of the deposited data

Results flagged for a closer look

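In 12 of 92 KO2 and KI groups tested over the core genes, 1 library stood apart from the rest. Its gap at the end of the range, over the whole range, passed the 95% limit, which chance passes in about 1 in 20 groups. Gap and range were taken on log2(scaled CPM + 0.5), while the levels printed here are scaled CPM. KO1, with 3 cultures per group, was not tested for this. At 6 h, KI replicate 5 was the lowest of its group for Cd14 (gap over range 0.661, 1942 scaled CPM beside 3239 to 4211 in the others), Ccl5 (0.696, 11358 beside 15351 to 17511), Ciita (0.712, 43.7 beside 68.2 to 81.6) and Csf1r (0.629, 1322 beside 1933 to 2419). KI replicate 2 was the highest at 6 h for Mertk (0.645, 197 beside 178 to 184). In KO2 at 6 h, replicate 2 was the lowest for Irf7 (0.590, 3063 beside 4270.1 to 5380.1) and Socs3 (0.604, 1512 beside 2406 to 3261), and replicate 4 the highest for Nfkbia (0.540, 4126 beside 2660 to 3254). At 0 h, KI replicate 4 was the lowest for Socs3 (0.653, 1.72 beside 4.23 to 6.59) and KO2 replicate 9 for Il10 (0.651, 0.197 beside 0.787 to 1.29). For Ifnb1 at 0 h, only KO2 replicate 5 (0.143, 1 count) and KI replicate 2 (0.119, 2 counts) held counts, beside 0 in all others. The gap is then 1 whatever the level, so the rate passed by chance does not apply to these groups.

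For 13 of the 23 core genes the change at 6 h differed between cohorts in the joint edgeR fit. Adjusted p was 6.88e-05 for Tlr4, 9.72e-06 for Cd14, 0.00949 for Ifngr1, 4.77e-04 for Irf7, 0.00591 for Nfkbia and 5.76e-06 for Socs3. It was 1.41e-05 for Cxcl10, 6.83e-08 for Ccl5, 1.04e-04 for Gbp2, 0.0035 for Nos2, 3.57e-07 for Irg1, 1.95e-04 for Cx3cr1 and 6.36e-06 for Mertk. The sizes in each cohort stand with each gene above. For Irf7, Ccl5 and Gbp2, resting levels were higher in KO1 cultures 33 and 35 than in culture 34, for Gbp2 mainly in culture 35. The part of these levels in the difference was not tested.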

How the results depend on the processing

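Scaling by total counts alone moved the counts of calls most. It gave 1385 higher and 7851 lower genes in KO1, 1802 and 7246 in KO2 and 1763 and 8183 in KI, with 1050 and 6281 shared, and 3885 shared past 2-fold, of them 624 higher and 3261 lower. On that scale 15 values of named genes moved from above 0 to below 0. Called lower were Becn1 (-0.64 in KO2 and -0.74 in KI), Irf5 (-0.28 in KI), Nr3c1 (-0.32 in KI), Bhlhe40 (-0.37 in KO2), C1qb (-0.60 in KI) and mt-Co1 (-0.43 in KO2 and -0.68 in KI). Not called were Irf5 (-0.13), Nr3c1 (-0.31), Tgm2 (-0.31), C1qb (-0.26), mt-Co1 (-0.10) and Tyms (-0.21) in KO1 and Edem1 (-0.051) in KO2. With TMM, Becn1 in KO2 had not been called either way. Of all values of named genes, 581 of 611 kept direction and their side of the threshold. DESeq2 gave 628 shared fallers past 2-fold, and the cause was not tested.

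Leaving out KO1 culture 33, 34 or 35 at both times gave 2809 to 3177 higher and 3362 to 3821 lower genes in KO1, 2000.0 to 2138 and 2509 to 2681 shared, and 1834 to 2025 shared past 2-fold (1022 to 1133 higher and 812 to 892 lower). The count that differed between cohorts was then 2544 to 3253. With resting cultures 33 and 35 left out, 1928 risers and 2661 fallers were shared, and 11 of 204 KO1 values of named genes lost their call, among them Tlr4, Irf5, Nr3c1, Bhlhe40, Mt2 and Hspa5. Leaving out 1 culture at both times moved the KO1 fold of 7 (culture 33), 18 (culture 34) and 31 (culture 35) of 204 named genes by over 1.5 times. In log2 fold change without culture 35, Cd14 was 2.17, Ifnb1 8.85, Cxcl10 10.77, Ccl5 7.44, Gbp2 10.53, Irg1 10.87 and Irf7 2.73, which was then called, and without culture 34 Ifnb1 was 5.65, Ccl5 3.73 and Gbp2 7.81. KO1 calls were lost for Calr (-0.79), Psma1 (-0.64), Tgm2 (0.71), C1qb (1.0), mt-Co1 (0.97) and Mt2 (2.40) without culture 33, for Calr (-1.07), Psma1 (-0.75), H2-Aa (1.26), Tgm2 (0.78), C1qb (0.64) and mt-Co1 (0.78) without culture 34, and for Nr3c1 (0.38), H2-Aa (1.49), Tgm2 (0.67) and C1qb (0.66) without culture 35. On total counts the lists shifted as given with each of them above. Shifts over 1.5 times that reached 3 or more members in other settings, beside the shared count with TMM and the filter, were as follows. With no filter, higher members were 12 beside 7 for MHC class I, 8 beside 5 for MHC class II, 3 beside 6 for oxidative phosphorylation and 3 beside 5 for lysosome genes, and lower ones 3 beside 1 for Toll-like receptors and for clock genes, 11 beside 7 for mitosis and 8 beside 5 for endoplasmic reticulum stress. With the block, lower clock genes were 3. With only the 2 groups compared, lower members were 3 beside 7 for mitosis and 3 beside 5 for antioxidant genes, and higher ones 3 beside 1 for DNA replication. Leaving out culture 33 gave 3 lower antioxidant, 4 lower mitosis and 3 lower endoplasmic reticulum stress genes, and leaving out culture 34 gave 3 higher MHC class II and 3 higher lysosome genes. With resting cultures 33 and 35 left out, higher members were 1 beside 3 for nuclear receptors, 2 beside 4 for clock genes and 3 beside 6 for oxidative phosphorylation. Summing repeat numbers gave 5 beside 3 for alternative activation.

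Deviations of same-numbered samples correlated at 0.0903 to 0.322 (KO1), -0.105 to 0.181 (KO2) and -0.0832 to 0.0702 (KI), so the numbers were not taken to pair samples, though each KO1 culture correlated best with its own number. With the replicate number as a block, 3623 genes were higher and 4334 lower in KO1, 3530.0 and 4122 in KO2 and 4191 and 4244 in KI, with 2382 and 2914 shared. DESeq2 size factors in edgeR gave 2366 and 2851 shared, no filter 2176 and 3245, only the 2 groups compared 2118 and 2410.0, and conflicting labels left out 2321 and 2827. Depth limits genes with few counts: Ifnb1 in KO2 rested on 21 counts at 6 h and 1 at 0 h.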
